A study of Mus musculus with 10 samples.

Results

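The genes described here are 31 genes of cholesterol synthesis, uptake and efflux, chosen by symbol, out of 21211 genes named on a mouse expression array. Each gene was represented by its brightest probe well above background on every array of a group. By that rule 30 of the 31 were measured, against 13202 measured genes in all, and each of the 30 was above background on all 10 arrays. They comprised 18 synthesis enzymes, 5 genes that sense sterols or regulate the enzymes, 4 genes of intracellular transport and storage, and 4 genes of efflux and of the LXR nuclear receptors. The study profiled messenger RNA of 5 lines labelled Mes and 5 lines labelled Epi, grown from single clones picked from mouse small cell lung cancer without the neuroendocrine state (non-NE). Mes and Epi lines alike are of the genetic background RbL/L, Trp53L/L, which by convention denotes Rb and p53 tumour suppressor alleles flanked by loxP sites. They received no treatment and grew in RPMI1640 with fetal bovine serum. The labels neither spell out the names Mes and Epi nor give the tumour of origin of a line, so p-values reflect only how these particular lines vary, which may be technical in part. In a bulk measurement, fewer cells of a type and less RNA per cell cannot be told apart.

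Cells make cholesterol from acetyl-CoA. The early enzymes lead through mevalonate to farnesyl diphosphate, which also feeds isoprenoids, and the later ones turn it into squalene, close the sterol rings in lanosterol and trim these to cholesterol. When sterol is scarce, SCAP carries the SREBP factors from the endoplasmic reticulum to the Golgi, where they are cut and released to switch on the enzymes together, and when sterol is plentiful, INSIG proteins hold SCAP back. Surplus sterol is esterified and stored, or exported by ABC transporters under LXR receptors, which respond to oxidised sterols. Serum supplies the cells with lipoprotein cholesterol as well.

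Between 24871 and 26515 of 41174 probes were above background on an array (60.4% to 64.4%), and no spot was saturated. The arrays lay on 3 slides. Mes1, Mes2 and Mes5 were on slide 3, Mes3 and Mes4 with Epi2 on slide 2, and the other Epi lines on slide 1, so that slide 2 alone mixed the groups. Mes2 and Mes3 resembled each other most (r = 0.986 across probes), followed by Epi3, Epi4 and Epi5 (0.981 to 0.984). Of 9 mesenchymal marker genes, all 9 were above background on every array of both groups, Vim and S100a4 among them. Of 8 epithelial markers, 0 were above background on all Mes arrays and 2, Krt18 and Krt19, on all Epi arrays, while Epcam and Esrp1 were on none. The summed epithelial signal was 4.60 to 5.99 in Mes and 5.33 to 9.86 in Epi lines (log2), and its part in the results was not tested. Of 7 leukocyte markers, 3 (Cd68, Csf1r and Cd3e) were above background on all arrays, Ptprc on 1 Epi array, and Itgam, Lyz2 and Adgre1 on none. Csf1r averaged 2.94 in Mes and 5.15 in Epi lines, Cd68 went the other way (5.75 and 4.49), and Cd3e was nearly level (4.77 and 4.96). The summed leukocyte signal was 6.46 to 6.89 in Mes and 6.43 to 6.94 in Epi lines. Of 4 endothelial markers, Kdr and Tek were above background on some arrays and Pecam1 and Cdh5 on none, with a summed signal of 3.21 to 4.96 in Mes and 3.65 to 5.80 in Epi lines. Of 4 liver markers, 0 were above background on any array. The part of leukocyte and endothelial signal in the results was not tested either.

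Sterol genes differed between Mes and Epi lines at a few points of the pathway, each time lower in Mes. Of the 30 measured genes, 0 were higher and 5 were lower in Mes lines: the sterol exporter Abca1, the late synthesis enzymes Hsd17b7, Cyp51 and Ebp, and the storage enzyme Soat1. Over all measured genes 28.4% were called in either direction, 15.7% higher and 12.7% lower, so 5 lower of 30 lies near the share of the whole array, and 0 higher lies below it. The call was an adjusted p under 0.05 by limma on log2 signal, with Benjamini-Hochberg adjustment over all tested probes. Differences are given on this log2 scale as Mes minus Epi. With slide as a fixed block, limma called 0 of the 30 genes and 97 genes in all, an estimate that comes from the arrays of slide 2, where 1 line, Epi2, stands for its group.

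**Figure D1:**
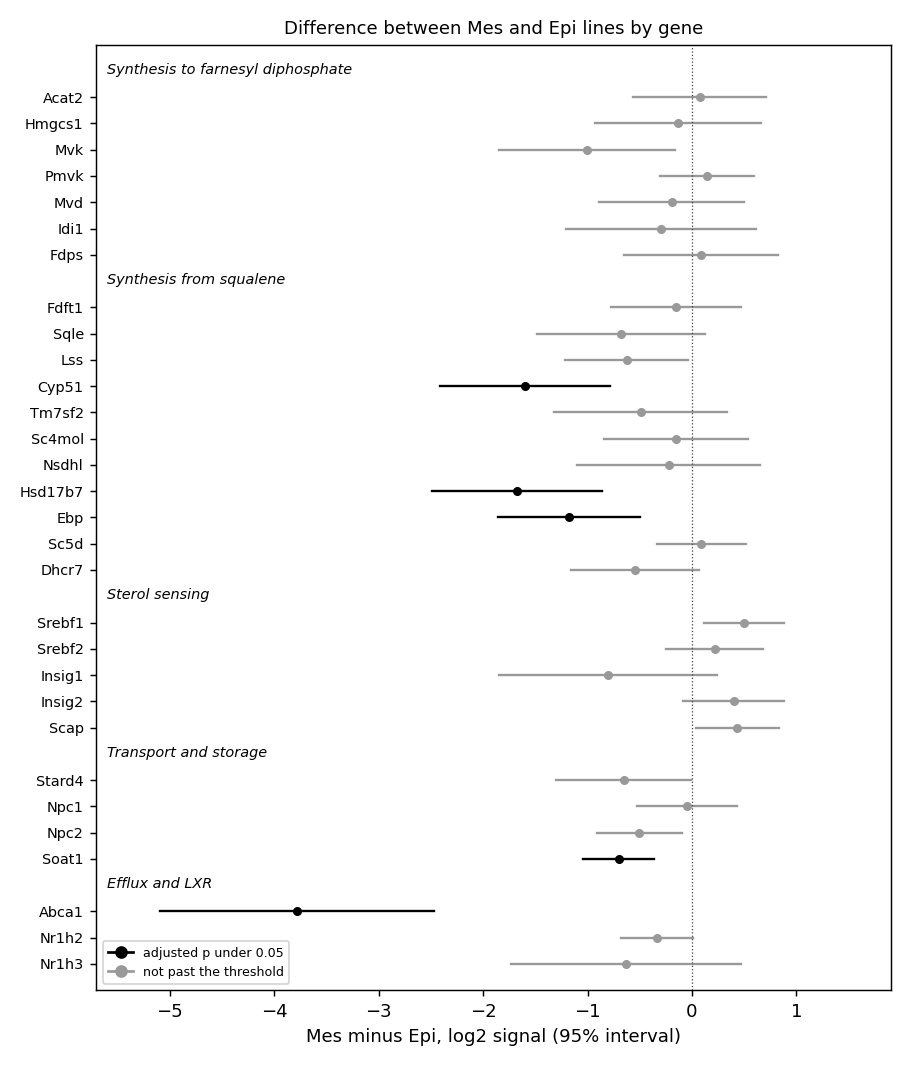
Difference in log2 signal, Mes minus Epi, for the 30 measured genes, grouped by role from top to bottom, with 95% intervals from limma (5 Mes and 5 Epi lines). Black marks the 5 genes past the threshold, all left of 0, and the interval of Abca1 lies farthest to the left.

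The 3 enzymes that differed act after lanosterol, in the part of the pathway that trims the sterol ring. Hsd17b7 reduces the keto group left when the extra methyl groups are removed. Its signal was 12.24, 10.32, 10.85, 11.22 and 11.63 in Mes1 to Mes5, against 13.10, 12.07, 13.40, 12.75 and 13.32 in Epi1 to Epi5. Mes1 lay just above Epi2, and every other Mes line lay below every Epi line. The difference was -1.68 (SE 0.37, adjusted p = 0.00855), which is 3.20-fold lower in Mes lines, and a dimmer probe of the gene gave -1.66. Relative to the median of its chromosome, 1, it was -1.55.

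Cyp51, the demethylase that takes the first methyl group off lanosterol, had signals of 9.90, 7.81, 8.33, 8.84 and 8.91 in Mes1 to Mes5, against 10.02, 9.72, 10.79, 10.51 and 10.74 in Epi1 to Epi5. Again only Mes1 reached into the Epi range, above Epi2. The difference was -1.60 (SE 0.37, adjusted p = 0.0107), or -1.52 relative to chromosome 5, and the other probes of the gene gave -1.05 and -1.23. Ebp, the isomerase that shifts a double bond within the ring, had 14.40, 13.03, 13.00, 14.08 and 13.95 in Mes1 to Mes5, against 14.98, 14.22, 14.99, 14.92 and 15.23 in Epi1 to Epi5. Mes1 once more exceeded Epi2, and the difference was -1.18 (SE 0.31, adjusted p = 0.0178). The probes lie at chr1:171882591-171882650, chr5:4081471-4081530 and chrX:7762463-7762522 of mm9, in the order Hsd17b7, Cyp51, Ebp. Within slide 2 the differences were -1.03 for Hsd17b7, -1.14 for Cyp51 and -0.68 for Ebp, with limma's adjusted p from 0.277 to 0.572. With Mes2 averaged with Mes3, and Epi3 to Epi5 averaged, they were -1.36, -1.21 and -0.89, and limma's adjusted p of 0.10, 0.13 and 0.172 ended these calls.

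**Figure D2:**
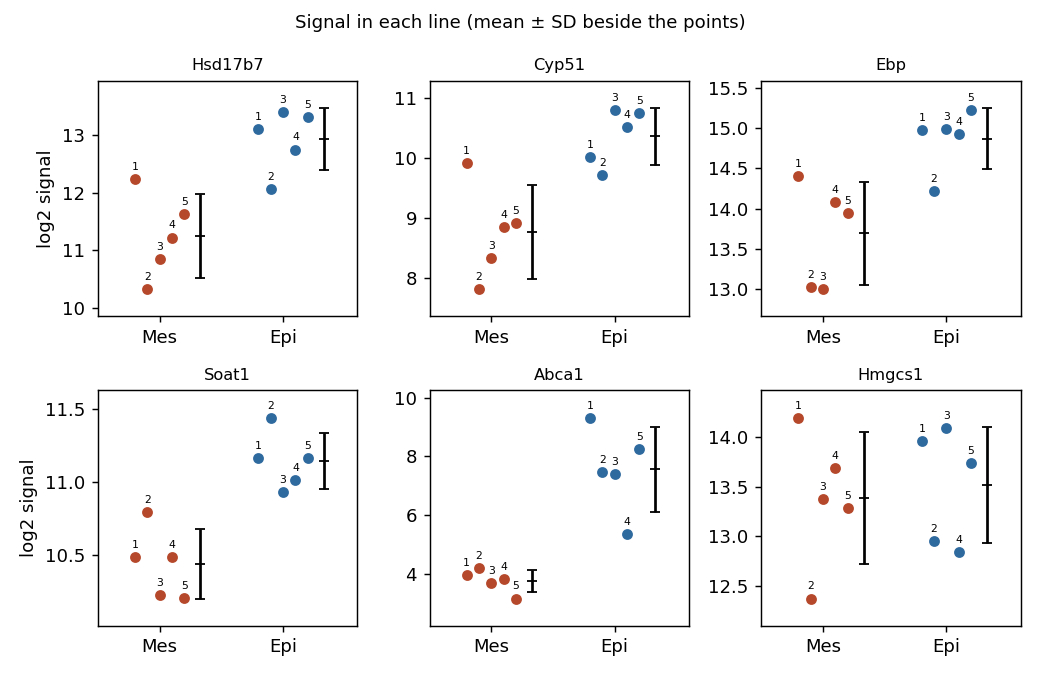
Log2 signal of 6 genes in each line, Mes left of Epi, with the line number above each point and the mean ± SD (n = 5) beside the points; each panel has its own axis. Mes1 is the uppermost Mes line for the 3 enzymes lower in Mes and for Hmgcs1, and Abca1 and Soat1 show no overlap between the groups.

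The other 8 enzymes from squalene onward did not pass. Sqle, the epoxidase that prepares squalene for ring closure, had 13.26, 11.11, 11.60, 12.03 and 12.67 in Mes1 to Mes5, against 13.01, 12.57, 13.02, 12.46 and 13.01 in Epi1 to Epi5. The Epi lines lay within 0.56 of each other and the Mes lines spread over 2.15, and the difference of -0.68 had an adjusted p of 0.185 by limma. Lss, which closes the rings, differed by -0.63 (adjusted p = 0.102 by limma), of which little remained relative to its chromosome, 10 (-0.16). Dhcr7, the last reductase of the pathway, differed by -0.54, Tm7sf2, a reductase of the ring, by -0.49 (-0.30 relative to chromosome 19), and Nsdhl and Sc4mol (now Msmo1), which remove methyl groups, by -0.22 and -0.16. Relative to chromosome 8, Sc4mol was at -0.04. Fdft1, squalene synthase, differed by -0.15 and Sc5d, a desaturase, by 0.09. Sc5d lies on chromosome 9, where the median gene was 0.70 higher in Mes lines, and relative to that median it was -0.61 (limma's adjusted p = 0.0466). Over the 11 enzymes of this arm, 3 were lower, 0 were higher and 10 of the 11 differences were negative, with a median of -0.54 against 0.03 over all measured genes. Over all 13202 measured genes, 12.7% were lower, 15.7% were higher and 6319 differences were negative. Enzymes of a line moved together, as described below, so these differences are not separate observations. Within slide 2 (Mes3, Mes4 and Epi2), Fdft1, Lss, Tm7sf2 and Sc4mol turned positive (0.70, 0.14, 0.73 and 0.26). Sc5d stayed positive there and the other enzymes of the arm stayed negative.

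The early arm showed 0 of 7 enzymes past the threshold, 1 with an unadjusted p under 0.05 by limma (5451 of all 13202 measured genes), and a median of -0.13. Mvk, mevalonate kinase, came nearest. Its signal was 9.99, 7.88, 8.50, 9.35 and 9.11 in Mes1 to Mes5, against 10.48, 9.22, 10.33, 10.01 and 9.82 in Epi1 to Epi5. The difference was -1.0 (SE 0.38, adjusted p = 0.0731 by limma), while the gene's other, dimmer probe gave -1.60 with adjusted p = 0.000525, so the probe decides this call. Relative to chromosome 5 the main probe was at -0.93. Hmgcs1, which makes HMG-CoA at the entry to the pathway, had 14.20, 12.37, 13.38, 13.69 and 13.29 in Mes1 to Mes5, against 13.97, 12.95, 14.09, 12.84 and 13.74 in Epi1 to Epi5. The lines of a group differed by up to 1.83 for Hmgcs1, and the groups by -0.13 (95% interval -0.93 to 0.66). Idi1, the isomerase of isopentenyl diphosphate, differed by -0.30, with Mes2 (10.25) far below the other Mes lines (11.80 to 12.43), Mvd, the decarboxylase, by -0.19 (-0.08 relative to chromosome 8), and Fdps, Acat2 and Pmvk by 0.09, 0.07 (0.18 relative to chromosome 17) and 0.14. Fdps makes farnesyl diphosphate, Acat2 condenses acetyl-CoA, and Pmvk adds the next phosphate to phosphomevalonate.

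Lines of the same group differed widely in these enzymes, and the enzymes moved together. For each of the 18, the range over the Mes lines (0.78 to 2.19) exceeded the difference between the group means. Mes1 was the highest Mes line for 17 of 18 enzymes, against 23.7% of all measured genes, the exception being Dhcr7 with Mes3 at the top. Mes2 was the lowest Mes line for 13 of the 18, against 19.2%. Relative to the mean of the Mes lines, the median enzyme lay at 0.75 in Mes1 and at -0.70 in Mes2, while the median of all genes was -0.04 in Mes1 and 0.03 in Mes2. Among Epi lines the highest was Epi1 for 10 enzymes and Epi3 for 7, against 23% and 14.2% of all measured genes. The lowest was Epi2 for 10 and Epi4 for 8, against 24.7% and 17.3%. The median enzyme lay at 0.31 in Epi1, -0.58 in Epi2, 0.30 in Epi3, -0.31 in Epi4 and 0.16 in Epi5 relative to the Epi mean. The median of all genes in these lines lay between -0.01 (Epi3) and 0.02 (Epi2).

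The positions of some lines are given here beside their slide and likeness, whose part in the spread of the enzymes was not tested. Mes1 and Mes2 shared slide 3 and lay at opposite ends, and Mes2 and Mes3 were the most alike arrays over all probes, while Mes3 lay near the middle of its group in these enzymes (median 0.01). Epi3 and Epi4, another like pair, lay on opposite sides of the Epi mean. Epi2, the only Epi line on slide 2, was the lowest Epi line for 10 of 18 enzymes (median -0.58). Mes4, also on slide 2, lay near the middle of its group (median -0.01). The SD within a group had a median over the enzymes of 0.64 in Mes and 0.48 in Epi lines, against 0.32 and 0.30 over all measured genes. Without Mes1, limma called 11 of the 30 genes lower, 6 of them enzymes, adding Mvk, Sqle and Lss. Without Epi2 it called 8 lower, again with 6 enzymes, adding Mvk, Lss and Tm7sf2. Over all measured genes, in either direction, it called 4109 without Mes1 and 3911 without Epi2, against 3752 with all lines. The median difference of the 18 enzymes was -0.26, ran from -0.51 without Mes1 to -0.04 without Mes2, and was 0.19 within slide 2.

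**Figure D3:**
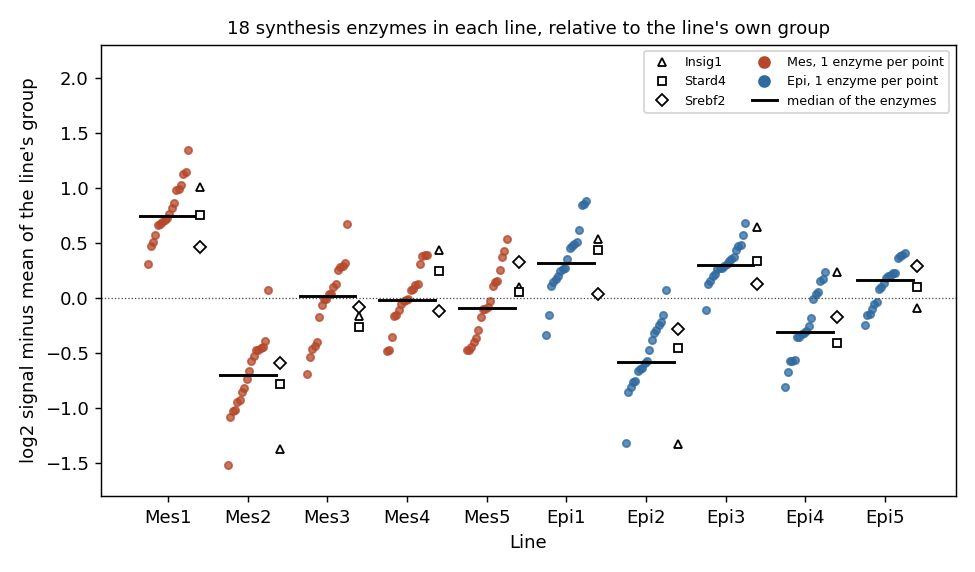
Log2 signal of the 18 synthesis enzymes in each line minus the mean of the line's own group (Mes lines left, Epi lines right), 1 point per enzyme in ascending order, with the median as a bar and Insig1, Stard4 and Srebf2 as open symbols. The enzymes of Mes1 all lie above 0 (median 0.75), those of Mes2 and Epi2 nearly all below it (medians -0.70 and -0.58), and Insig1 and Stard4 lie on the same side as the median in these 3 lines.

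As deviations from the group means over the 10 lines, all 153 pairs of enzymes correlated positively, with a median Pearson r of 0.73 and a lowest of 0.10. An enzyme and any other measured gene had a median r of -0.06. These coefficients describe 10 arrays that share slides and a joint normalization, and lines that resemble each other count in them as separate points. Hmgcs1 (median r of 0.80 with the other 17 enzymes), Mvk and Sc5d (0.81 each), and Hsd17b7 and Mvd (0.80 each) followed the rest most closely, and Tm7sf2 (0.55) and Dhcr7 (0.59) least.

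Promoters are shown for the 3 enzymes that differed, for Hmgcs1, which did not pass, and for the exporter Abca1. Whether their letters bear on how the enzymes moved together was not tested. The windows are RefSeq's for GRCm38.p6 and run from 250 bases before to 50 bases after the gene start, 5′ to 3′ on the gene's strand. Capitals mark exact matches to the NF-Y box CCAAT, which reads ATTGG on the other strand, and to the sterol regulatory element TCACNCCAC, the letters searched for SREBP. Hsd17b7 lies at chr1:169969156-169969455 (minus strand), Cyp51 at chr5:4104648-4104947 (minus), Ebp at chrX:8193463-8193762 (minus), Hmgcs1 at chr13:119690101-119690400 (plus) and Abca1 at chr4:53159846-53160145 (minus).
Hsd17b7: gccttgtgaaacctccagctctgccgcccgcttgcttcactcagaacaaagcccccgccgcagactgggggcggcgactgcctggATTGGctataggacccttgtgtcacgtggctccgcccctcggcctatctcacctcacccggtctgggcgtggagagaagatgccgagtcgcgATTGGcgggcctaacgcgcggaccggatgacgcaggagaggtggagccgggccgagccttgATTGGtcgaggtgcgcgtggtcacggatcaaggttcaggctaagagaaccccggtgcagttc
Cyp51: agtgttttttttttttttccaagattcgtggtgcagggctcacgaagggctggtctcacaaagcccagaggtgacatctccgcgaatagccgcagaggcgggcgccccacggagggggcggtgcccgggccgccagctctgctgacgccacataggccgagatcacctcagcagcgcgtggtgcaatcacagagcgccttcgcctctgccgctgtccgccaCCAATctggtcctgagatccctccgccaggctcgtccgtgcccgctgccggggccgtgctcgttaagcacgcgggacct
Ebp: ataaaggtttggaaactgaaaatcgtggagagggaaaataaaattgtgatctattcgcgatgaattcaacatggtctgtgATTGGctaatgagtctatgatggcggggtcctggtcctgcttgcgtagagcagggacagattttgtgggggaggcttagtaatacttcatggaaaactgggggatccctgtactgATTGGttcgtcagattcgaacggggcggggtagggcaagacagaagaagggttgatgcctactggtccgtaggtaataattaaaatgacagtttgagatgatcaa
Hmgcs1: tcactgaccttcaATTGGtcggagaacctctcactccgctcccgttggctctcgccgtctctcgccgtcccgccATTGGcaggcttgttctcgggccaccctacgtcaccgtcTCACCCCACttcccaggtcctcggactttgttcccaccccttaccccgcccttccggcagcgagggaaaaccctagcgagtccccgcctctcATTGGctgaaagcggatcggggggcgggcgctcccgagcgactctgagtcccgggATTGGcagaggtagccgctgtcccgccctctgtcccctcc
Abca1: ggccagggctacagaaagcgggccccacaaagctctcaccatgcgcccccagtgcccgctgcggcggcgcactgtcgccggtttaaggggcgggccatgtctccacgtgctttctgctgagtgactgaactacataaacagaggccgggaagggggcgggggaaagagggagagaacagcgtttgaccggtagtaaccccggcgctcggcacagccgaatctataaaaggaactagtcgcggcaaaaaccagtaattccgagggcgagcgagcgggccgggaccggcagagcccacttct

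Hsd17b7 held 3 NF-Y boxes, Cyp51 1, Ebp 2, Hmgcs1 4 and Abca1 0, and the sterol regulatory element was matched in Hmgcs1 only of these 5. A window was given for 25 of the 31 genes and for 15 of the 18 enzymes. Some genes had more than 1 window, and a gene was counted when any of its windows held the motif. The NF-Y box stood in 14 of 15 enzymes with a window (93.3%), all but Acat2. It stood in 43.2% of the 10159 measured genes with a window and 41.1% of all 27025 genes in the table. The Sp1 box GGGCGG also stood in 14 of 15 (93.3%), against 67.7% of measured genes and 38.2% of all genes. The sterol regulatory element was found in 1 of 15 (6.67%), against 1.39% and 1.44%. Both strands were searched, matches of different motifs may share letters, and a match is a string of letters, not a site shown to be bound. Only exact letters within the window were searched, so a gene without a match is not shown to lack the element. The NF-Y box also stood in 4 of 5 regulators and in 2 of 2 transport and storage genes with a window, Srebf1 and Soat1 among them. Of the 3 efflux and LXR genes with a window, 0 held the NF-Y box.

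Of the 5 regulators 0 passed, and 4 of their 5 differences were positive, with 2 unadjusted p under 0.05 (Srebf1 and Scap), a share near that of all genes given above. Srebf1 encodes the SREBP that chiefly drives fatty acid genes in the liver. Its signal was 14.24, 14.49, 14.46, 14.30 and 14.65 in Mes1 to Mes5, against 13.74, 13.46, 14.20, 14.17 and 14.09 in Epi1 to Epi5. The groups did not overlap, the Mes lines being the higher, with a narrow margin between Mes1 and Epi3. The difference was 0.50 (SE 0.17, adjusted p = 0.0530 by limma). It was 0.26 with 75th percentile scaling (adjusted p = 0.323) and past the threshold without Mes1 (adjusted p = 0.0484), so the call depends on small choices. Groups that do not overlap were found for 18.9% of all measured genes and for 3 of the 30 described here, Srebf1, Soat1 and Abca1. All Mes lines lay below all Epi lines for the last 2, as for 8.31% of all measured genes.

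Srebf2, the SREBP that chiefly drives cholesterol synthesis, differed by 0.22 (95% interval -0.25 to 0.68), with 14.64, 13.58, 14.09, 14.05 and 14.50 in Mes1 to Mes5, against 13.99, 13.67, 14.08, 13.79 and 14.24 in Epi1 to Epi5. Its other 3 probes gave -0.20, -0.04 and 0.11. Insig1, which retains SCAP and is itself switched on by SREBP, had the wide spread of the enzymes, with 9.56, 7.18, 8.39, 8.99 and 8.65 in Mes1 to Mes5, against 9.89, 8.04, 10.01, 9.59 and 9.27 in Epi1 to Epi5. Mes2 and Epi2 were low and Mes1 was high in its group, as for the enzymes, and the difference was -0.80 (adjusted p = 0.227 by limma). Relative to chromosome 5 it was -0.73. Insig2, its relative, differed by 0.40 (adjusted p = 0.198 by limma), or 0.52 relative to chromosome 1. Scap, the SREBP escort, differed by 0.43 (adjusted p = 0.0963 by limma) but lies on chromosome 9, and relative to that chromosome's median it was -0.27.

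Of the transport and storage genes, Soat1 was lower in Mes lines and the other 3 did not pass. Soat1 esterifies cholesterol for storage in lipid droplets. Its signal was 10.49, 10.80, 10.23, 10.49 and 10.21 in Mes1 to Mes5, against 11.16, 11.44, 10.93, 11.02 and 11.16 in Epi1 to Epi5. The groups did not overlap, and the difference was -0.70 (SE 0.15, adjusted p = 0.00878), or -0.58 relative to chromosome 1. Its probe lies at chr1:158359977-158360036 of mm9. Its other probes gave -0.51 and -1.45, both past the threshold (adjusted p = 0.0450 and 0.000196 by limma), and within slide 2 the difference was -1.08 (adjusted p = 0.264). Among its own lines Mes2, low in the enzymes, was the highest for Soat1, and Epi2 was highest among Epi lines.

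Stard4, which carries cholesterol between membranes and is an SREBP target, had 11.68, 10.15, 10.67, 11.17 and 10.98 in Mes1 to Mes5, against 12.02, 11.13, 11.92, 11.17 and 11.69 in Epi1 to Epi5. Mes1 and Epi1 were highest and Mes2 and Epi2 lowest in their groups, and the difference was -0.65 (adjusted p = 0.119 by limma). Dimmer probes of Stard4 gave smaller differences, -0.32 and -0.26 (adjusted p = 0.495 and 0.604 by limma). Npc2 and Npc1 hand cholesterol out of the lysosome. Npc2 differed by -0.51 (adjusted p = 0.0626 by limma), with 11.78 to 12.62 in Mes and 12.40 to 12.92 in Epi lines, and Npc1 by -0.05 (95% interval -0.53 to 0.43).

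Abca1, the transporter that loads cholesterol onto apolipoprotein A-I, showed the widest gap of the 30 genes. Its signal was 3.96, 4.20, 3.72, 3.84 and 3.18 in Mes1 to Mes5, against 9.32, 7.46, 7.40, 5.37 and 8.25 in Epi1 to Epi5. The Mes lines were uniformly low and the Epi lines spread over 3.95, with Epi1 highest and Epi4 nearest to the Mes lines. The difference was -3.78 (SE 0.59, adjusted p = 0.00186), which is 13.7-fold lower in Mes lines. It was -3.68 within slide 2 (adjusted p = 0.118), -4.19 with like lines averaged (adjusted p = 0.0124) and -4.32 relative to chromosome 4, whose median gene was 0.54 higher in Mes lines. With normexp background correction, which started from median spot and background intensities and added an offset of 50, it was -1.07 (adjusted p = 0.0297). Which of these changes moved the size was not tested. The 1 probe of the gene lies at chr4:53043944-53044003 of mm9.

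The LXR genes showed no such gap, and the second exporter could not be measured. Nr1h2, the widely expressed LXR beta, differed by -0.33 (adjusted p = 0.136 by limma), with 9.77 to 10.49 in Mes and 10.26 to 10.53 in Epi lines. Nr1h3, LXR alpha, had 2.96, 4.85, 4.25, 4.55 and 5.43 in Mes1 to Mes5, against 4.77, 6.46, 5.05, 4.64 and 4.28 in Epi1 to Epi5. Its groups overlapped widely (difference -0.63, 95% interval -1.73 to 0.46, and -0.81 relative to chromosome 2), and Mes1 was its lowest and Epi2 its highest line, opposite to the enzymes. Abcg1, which passes cholesterol to high-density lipoprotein, was above background on 0 of 10 arrays, so no level or difference can be given.

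Across the 10 lines, Stard4 (median r of 0.84 with the 18 enzymes), Insig1 (0.79) and Srebf2 (0.74) followed the enzymes about as closely as the enzymes followed each other. Npc2 followed at 0.61, Insig2 and Nr1h2 at 0.43 each, Abca1 at 0.32 and Scap at 0.29. Srebf1 (-0.01) and Npc1 (-0.07) lay near 0, and Soat1 (-0.39) and Nr1h3 (-0.63) ran against all 18 enzymes. These values describe deviations from the group means over the same arrays and carry no test.

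**Figure D4:**
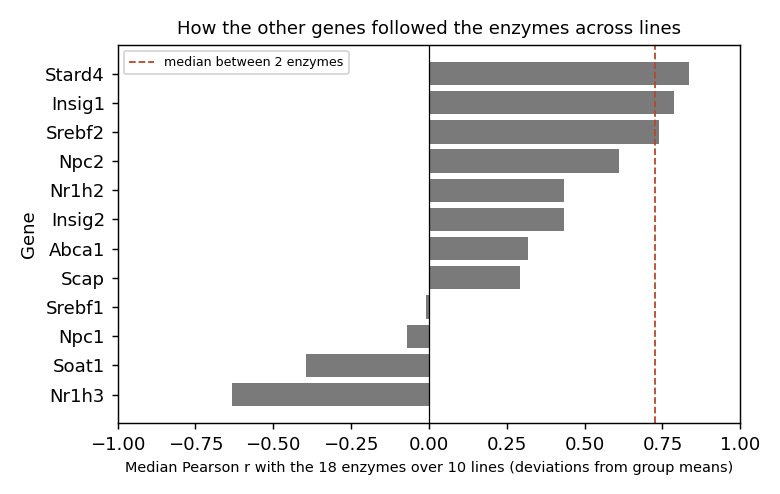
Median Pearson r of each of the 12 other measured genes with the 18 synthesis enzymes, over 10 lines as deviations from the mean of their group (Mes or Epi); the dashed line marks the median r between 2 enzymes, 0.73. Stard4, Insig1 and Srebf2 reach that line, Nr1h3 and Soat1 lie farthest below 0, and Npc1 and Srebf1 lie just below 0.

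Further genes around the pathway were read from 6 lists, with no test of a list. Over all measured genes 15.7% were called higher and 12.7% lower in Mes lines. The counts of all 6 lists are to be read beside these shares. Of 12 measured uptake genes, 1 was higher and 2 were lower in Mes lines. Lrp1, a receptor for remnant lipoproteins and many other ligands, was 10.84 ± 0.44 in Mes and 13.12 ± 0.31 in Epi lines (SD, n = 5 each), without overlap, a difference of -2.28 (adjusted p = 0.000297 by limma), or -1.81 relative to chromosome 10. Its relative Lrp5, known as a Wnt co-receptor, was lower (-0.86, or -0.67 relative to chromosome 19). Sort1, a sorting receptor, was higher in Mes lines by at least 9.58-fold and above background on 4 of 5 Epi arrays, where Epi1 reached 8.09 and the others lay between 2.04 and 4.88.

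Of 23 further transport and storage genes, 5 were higher and 3 lower in Mes lines. Plin2, which coats lipid droplets, was 14.35, 13.52, 13.84, 12.11 and 12.28 in Mes1 to Mes5, against 12.93, 4.23, 4.16, 3.47 and 3.67 in Epi1 to Epi5. Epi1 lay among the Mes lines and the other 4 Epi lines lay far below. The difference was 7.53 (SE 1.63, adjusted p = 0.00815), or 6.99 relative to chromosome 4. Osbpl6, an oxysterol-binding protein relative, was at least 15.7-fold higher in the Mes lines and above background on 0 Epi arrays (adjusted p = 2.13e-06 by limma), on a chromosome, 2, whose median gene was 0.18 higher. Scp2, sterol carrier protein, was higher by 0.68, close to the shift of its chromosome, 4, which leaves 0.14. Lamp1, a lysosomal membrane protein, was lower (-0.55, or -0.43 relative to chromosome 8).

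Of 16 further efflux genes, 3 were higher and 3 lower. Lpcat3, a phospholipid acyltransferase and LXR target, was lower in Mes lines (-0.97, adjusted p = 0.00353 by limma), or -0.77 relative to chromosome 6, without overlap. Abca3, a lipid transporter of lung surfactant cells, was lower (-1.01, or -0.90 relative to chromosome 17), and Abca2 was higher (1.05, or 0.87 relative to chromosome 2). Abcg4, an Abcg1 relative, was at least 2.53-fold higher and above background on 3 Epi arrays, on chromosome 9, whose median gene was 0.70 higher.

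Of 13 further synthesis genes, 2 were higher and 2 lower. Por, the electron donor of Cyp51 and Sqle among other enzymes, was 11.87 ± 0.42 in Mes and 13.11 ± 0.39 in Epi lines (SD, n = 5 each), a difference of -1.25 (adjusted p = 0.00512 by limma), or -1.17 relative to chromosome 5, without overlap. Lbr, a nuclear membrane protein that shares the reductase activity of Tm7sf2, was higher in Mes lines by 0.63 (0.75 relative to chromosome 1). The subunits of the enzyme that makes dolichol chains from farnesyl diphosphate went opposite ways: Nus1 was lower (-0.95) and Dhdds higher (0.81). They lie on chromosomes 10 and 4, and relative to those they were -0.48 and 0.27.

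Of 23 further regulators, 3 were higher and 2 lower. Sp1, the factor named for the Sp1 box, was higher by 0.39 without overlap. Mbtps1, the protease that first cuts SREBP, was lower (-0.46, or -0.35 relative to chromosome 8), as was Sec24d, of the vesicle coat that carries cargo to the Golgi (-1.15). Vcp, which extracts proteins from the endoplasmic reticulum membrane, was higher by 0.54, as was the median gene of its chromosome, 4. Of 27 fatty acid and triglyceride genes, 3 were higher and 3 lower, among them Dgat2, which makes triglyceride (-2.02), Acsl1, which activates fatty acids (-1.12, or -1.0 relative to chromosome 8), Lpin2, a phosphatidate phosphatase (-0.69, or -0.58 relative to chromosome 17), and Elovl5, which elongates polyunsaturated fatty acids (0.81, or 0.11 relative to chromosome 9). The 6 lists had medians between -0.23 and 0.20, against 0.03 over all measured genes.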

How the data were processed

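Arrays had 1 colour (Cy3). Per the file headers, the deposited processed intensity values were background-subtracted and detrended within each array by Agilent Feature Extraction 10.7.3.1 (10.7 per the submitters' processing notes), with no scaling between arrays. The authors also deposited log2 values that the series text calls quantile-normalized (GeneSpring 11.0). Their scale, centring and direction matched the scanner values (r from 0.9996 to 0.9999 per array, column median 5.07).

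Control spots (1639) and flagged outlier spots (46 to 87 per array) were left out and spots of 1 probe averaged. For the main values the processed intensities were quantile-normalized, floored at 1 and taken to log2. A probe was tested when well above background on all 5 arrays of a group (24475 probes). The Mes and Epi lines were compared in limma 3.58.1 (lmFit, eBayes; R 4.3.3), tested on simulated data, and p-values were adjusted over these probes by Benjamini-Hochberg. Probe names came from the deposited table (34893 probes, 6281 unnamed), with 33405 updated by Entrez ID to RefSeq symbols. Probe coordinates are the files' own (mm9), and the exon or UTR a probe lies in was not analysed here. For genes above background on only some arrays of the dimmer group, a lower bound of the fold is given: each array of the dimmer group enters with its own value or, where larger, with the smallest signal that counted as above background there.

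The genes, lists and tests were chosen with earlier results of these data known. The named genes are all 31 members, up to 4 called genes with the lowest adjusted p of each further list and the brightest markers (other markers were named after their values were seen), and genes of chromosomes with a median over 0.1 from that of all genes are given also relative to it. Some genes of the lists are not reported here, while counts include them. The number of arrays, 5 per group, limits the precision of every value. Alternatives covered scaling, background correction, the deposited values, filters, slide, replicate number, array weights, variance model, floor, choice of probe, chromosome, like lines (averaged, chosen after seeing the data) and each line left out.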

Additional observations from a re-analysis of the deposited data

Results flagged for a closer look

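Idi1 in Mes2 lay far from the other Mes lines, at 10.25 against 11.80 to 12.43 (log2 signal), with a gap of 0.711 of the group's range. It was the only such case among 60 groups of 5 lines examined, where chance gives about 1 in 20.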

How the results depend on the processing

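The lower signal in Mes lines of Abca1, Hsd17b7, Cyp51, Ebp and Soat1 kept its direction under all 26 alternatives. The calls ended only with slide as a fixed block and on slide 2 alone, which compare 1 Epi line with 2 Mes lines, and those of Hsd17b7, Cyp51 and Ebp also with like lines averaged, an alternative chosen after seeing the data. Genes called in all numbered 97 with slide as a fixed block, 0 on slide 2 (2286 at an unadjusted p under 0.05, 6 of the 30 genes among them, by limma) and 989 with like lines averaged, against 3752, and 2664 to 4109 with a line left out. Of the 30 genes, 0, 0 and 2 were lower under those settings and 10 with array weights, against 5, and 5 to 11 with a line left out. Synthesis enzymes called numbered 0, 0 and 0 and 5 with array weights, against 3, and 3 to 6 with a line left out. With array weights limma called 5163 genes in all, against 3752, so calls rose over the whole array as well. The enzymes' median of -0.26 was 0.19 with slide as a fixed block and on slide 2, and -0.51 to -0.04 with a line left out. The count of genes higher in Mes, 0, was 1 with normexp, slide as a random block, array weights, the trended robust fit, a floor of 16 or the mean over probes, and 0 to 1 with a line left out; the gene was Srebf1, or Scap with array weights and without Epi1. Sc5d turned from 0.09 to -0.61 with the chromosome median removed, by construction. Over the 30 genes and 26 alternatives, 702 of 780 values kept direction and call, 13 lost and 27 gained a call, and 37 uncalled values changed sign. Under 5 other ways of computing the signal, Mes1 was highest for 17 enzymes in each, Mes2 lowest for 13 to 16, Epi1 or Epi3 highest for 14 to 17 and Epi2 or Epi4 lowest for 17 to 18. Replicate numbers did not pair the lines (r 0.01 to 0.04 between same-numbered lines, 1 of 5 best with its own number), and with the replicate block 7 of the 30 genes were lower, Mvk and Insig1 added, 4 enzymes were called and 2949 genes in all. Low signal limits the precision for Abca1 and Nr1h3.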
